A study of Zea mays with 47 samples.

Results

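Maize of temperate Europe is bred from 2 gene pools, Flint and Dent, which were kept apart for a long time and are crossed to make hybrids. The leaves compared here came from seedlings of the 38°C heat level: the Flint inbred lines L012, L017, L023 and L043 (8 libraries) and the Dent inbred lines S058, S067, S070 and P040 (8 libraries). They make up 16 of the 47 libraries of the series. The other libraries are from the same 8 lines at 25°C (16 libraries) and 32°C (15 libraries) and were used to see whether a pool difference at 38°C was already present in cooler plants. These are day temperatures, and the nights were cooler. For 32°C and 38°C the study raised the heat only after the first days of growth. The study repeated the experiment for the further heat levels, so heat level and run cannot be told apart. No transgene, mutation or chemical was involved. An inbred line is 1 genotype, each pool is represented by 4 genotypes, and the 2 libraries of a line at a heat level were made from leaf pieces pooled over several plants, so the line and not the library was taken as the independent unit. The pool of each line was taken from the study's own description of the lines. In both pools, 2 lines were classed by the study as heat tolerant and 2 as heat susceptible.

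When leaves warm, proteins unfold, and heat stress transcription factors switch on genes for heat shock proteins, chaperones that hold or refold damaged proteins. Photosynthesis is among the first processes to suffer. Maize is a C4 plant, in which mesophyll cells fix carbon dioxide with phosphoenolpyruvate carboxylase and pass it to bundle sheath cells, where Rubisco completes the work. Membrane lipids, cell walls, water channels and defence genes also respond to long heat.

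The values are counts of reads per gene, given below as CPM (counts scaled to a common library size by the TMM method), for 17905 genes. A difference is the log2 ratio of Flint to Dent, so that a negative value stands for a higher level in Dent, and ± after a difference is its standard error. A gene was called when its adjusted p was below 0.05 in edgeR's quasi-likelihood test on the 8 line sums. At 38°C the libraries held 3687700 to 13912372 counts, the 10 most abundant genes took 47.2 to 66.2% of them, and 166 to 535 genes were without a count. At 25°C the 10 most abundant genes took 75.1 to 87.5% of the counts, and 474 to 1483 genes were without a count. The TMM factors were 0.39 to 0.72 at 25°C and 1.28 to 3.16 at 38°C. A smaller share of the counts was thus left for other genes at 25°C. The part of this lower depth in comparisons between heat levels was not tested. With the genes of mean log2 CPM of at least 1 (9890 genes), 15 of the 16 libraries at 38°C were closest to the other library of their own line, and all 16 to a line of their own pool. The exception was the second L043 library (correlation 0.23 with L023 and 0.21 with its own line). At 25°C, 1 P040 library was closer to the Flint line L017 (0.27) than to P040 (0.25). At 32°C the first libraries of S070 and P040 were each closest to the other's line (0.61 and 0.48, against -0.04 and -0.09 with their own), and the second P040 library was marginally closest to L017 (0.21 against 0.19). The counts of calls and the main values at 25°C and 32°C are also given without these libraries, and single values at those heat levels are given with them unless stated.

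The pools stood apart in the leaf transcriptome at 38°C. The first principal component of the 16 libraries held 22.0% of the variance and placed every Flint library (10.8 or more) above every Dent library (-21.2 or less). The line means were 39.8 ± 16.6 (SD, n = 4) in Flint and -39.8 ± 10.7 (SD, n = 4) in Dent, with p = 0.029 in an exact two-sided permutation test over lines, the smallest p that 70 splits of 8 lines can give.

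At 38°C, 102 of the 17905 genes were called (0.57%), 52 higher in Flint (0.29%) and 50 higher in Dent (0.279%), with differences of 0.77 to 6.90 in size and a median size of 1.77. Without the second L043 library the count was 92. It varied more with the line left out: it was 19 without L023, 20 without L043, 37 without S070, 42 without S058, 46 without L012, 51 without P040, 85 without L017 and 133 without S067. With only the first library of each line it was 15, and with only the second 122. At 32°C the same test called 214 genes (1.2%), and 44 without the first libraries of S070 and P040. At 25°C it called 7 (0.0391%), and 39 without the doubted P040 library. Without the whole line P040 it called 83 at 25°C, more than the 51 at 38°C. Most of the genes called at 38°C already had a sizeable difference in cooler plants. Of the 102 genes, 100 had the same sign at 25°C, 71 had a difference of at least 1 in size there, 19 lay between 0.5 and 1, and 12 lay below 0.5. The median size of their difference at 25°C was 1.42. Without the doubted P040 library these counts were 99, 75, 17 and 10 and the median was 1.53. The reads of all lines were aligned to the B73 reference, and the part of mapping in differences seen at both heat levels was not tested.

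**Figure D1:**
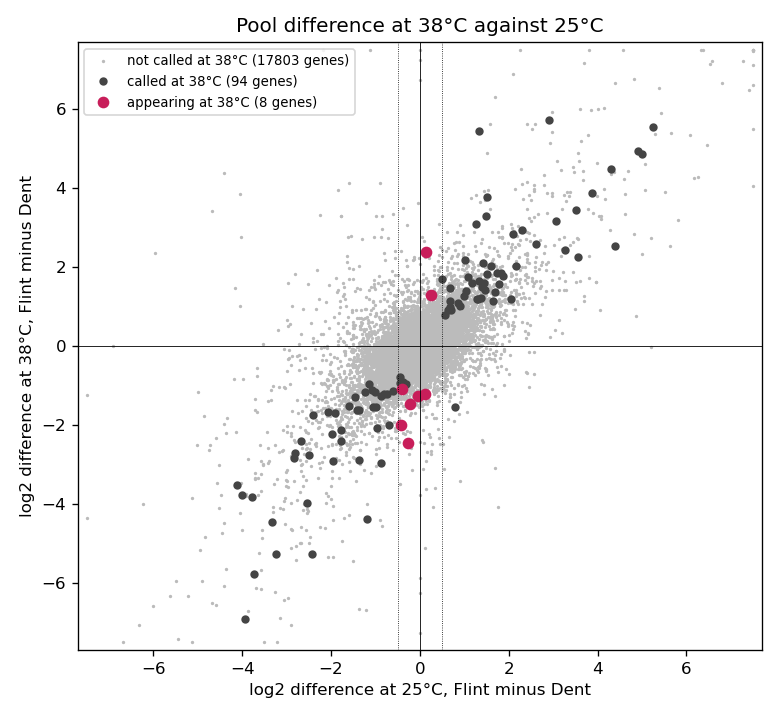
Log2 difference between the pools (Flint minus Dent) at 38°C on the vertical axis against that at 25°C on the horizontal axis, 1 point per gene, with differences beyond 7.5 drawn at the edge and dotted lines at -0.5 and 0.5. Most of the 102 genes called at 38°C lie along the diagonal. Between the dotted lines lie 12 of them, of which the 8 genes of the rule also have a difference of at least 1 in size at 38°C.

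Several called genes with a known product were of this lasting kind. GRMZM2G169593 (TSB1, also orp1), a tryptophan synthase beta subunit, stood at 3.23, 3.00, 1.95 and 3.37 CPM in L012, L017, L023 and L043 and at 11.8, 13.6, 14.7 and 18.7 CPM in S058, S067, S070 and P040 at 38°C. Dent was higher in every line, with a difference of -2.39 ± 0.22 (adjusted p = 0.010) at 38°C and of -2.69 at 25°C. MYB59 (GRMZM2G093789), a transcription factor of the MYB family, showed the reverse: 5.57, 4.41, 4.63 and 4.5 CPM in the 4 Flint lines and 0.87, 1.23, 0.52 and 0.77 CPM in the 4 Dent lines, in the same order. Its difference was 2.44 ± 0.27 at 38°C (adjusted p = 0.022) and 3.26 at 25°C. TIP4-1 (GRMZM2G103945), a water channel of the vacuole membrane, was higher in Dent, with 4.73, 3.73, 7.09 and 7.88 CPM in Flint and 14.3, 30.2, 20.8 and 17.4 CPM in Dent. The level of TIP4-1 was lower at 38°C than at 25°C in all 8 lines, and the difference was -1.75 ± 0.30 at 38°C (adjusted p = 0.044) and -2.41 at 25°C. GRMZM2G059037 (afd1, also REC8), a cohesin subunit of meiosis, was low in all leaves, with no more than 0.24 CPM in a Flint line and 0.91 to 1.82 CPM in the Dent lines.

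In other called genes the difference at 38°C was larger than at 25°C without meeting the limit of 0.5 used below. These genes, and TSB1 and afd1, were chosen after their values were seen. GRMZM2G062531 had the largest difference of all calls (-6.90, from 17 counts in Flint and 2062 in Dent): the Flint lines held 0 to 0.57 CPM at 38°C and the Dent lines 5.97 to 29.7 CPM, where at 25°C no line passed 1.53 CPM. GRMZM2G094304 reached 1.52 to 5.99 CPM in Dent against 0.11 to 0.25 CPM in Flint, from at most 0.25 CPM in any line at 25°C. GRMZM2G308365 was the mirror image, with 1.83 to 4.20 CPM in Flint and at most 0.19 CPM in Dent at 38°C, and at most 0.43 CPM in any line at 25°C. GRMZM2G073199 was at 1.10 to 2.35 CPM in Flint and 3.10 to 4.52 CPM in Dent at 25°C and at 0.14 to 0.30 and 1.24 to 1.79 CPM at 38°C, and its interaction of -2.04 had an unadjusted p of 0.00018. GRMZM2G004959 (lim1), named for the LIM domain, was at 1 to 1.78 CPM in Flint at 38°C against 0.03 to 0.19 CPM in Dent.

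The genes whose pool difference appeared at 38°C were taken by rule: called at 38°C, a difference of at least 1 in size there and under 0.5 at 25°C. This held for 8 genes (0.0447% of those tested), 2 higher in Flint and 6 higher in Dent. Because their 38°C and 25°C values chose them, these are described and not tested. At 38°C the 4 lines of the pools did not overlap for any of the 8. The same held for all 102 called genes, so this is not particular to the 8. The lines overlapped for all 8 at 25°C, where the rule asked for a small difference. They also overlapped for all 8 at 32°C, with or without the 3 doubted libraries. In 7 of the 8 all 16 libraries at 38°C were apart as well. The 2 libraries of a line are not independent, and this was not counted for the 102 called genes or for all genes. Across all genes the lines did not overlap for 9.14% at 38°C (4.56% with Flint and 4.59% with Dent higher), 9.41% at 32°C and 7.11% at 25°C.

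The largest difference of the 8 genes was that of GRMZM2G017186, described by the study as Exhydrolase II. Exohydrolases of this kind trim glucans of the cell wall. Its level at 38°C was 2.28, 1.95, 1.61 and 2.65 CPM in L012, L017, L023 and L043, and 13.2, 11.5, 7.91 and 14.5 CPM in S058, S067, S070 and P040. Every Dent line was above every Flint line, and the difference was -2.46 ± 0.23. At 25°C the gene was low everywhere, at 0 to 1.43 CPM in Flint and 0.20 to 1.35 CPM in Dent. At 32°C its mean was 27.6 ± 27.7 CPM in Flint and 29.2 ± 32.5 CPM in Dent (SD, n = 4 lines). L017 (67.7 CPM, a single library) was far above the other Flint lines (4.24 to 20.1 CPM). S067 (77.6 CPM) was far above the other Dent lines (8.45 to 17.5 CPM). At 38°C both pools stood below their 32°C mean, though P040 was higher at 38°C than at 32°C. Without the 3 doubted libraries the Dent mean at 32°C was 32.7 ± 39.5 CPM (SD, n = 3 lines). It was called in 20 of 21 alternatives, including each of the 8 fits that left out a line.

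GRMZM2G085747, which carries no description in the sources used here, had changes of opposite sign in the pools. It stood at 3.23, 4.20, 2.89 and 3.78 CPM in the Flint lines and 9.98, 8.12, 8.31 and 11.5 CPM in the Dent lines at 38°C. From 25°C to 38°C the log2 level changed by -0.56, -0.48, -0.52 and -0.37 in the Flint lines and by 0.33, 0.62, 1.02 and 1.30 in the Dent lines. The difference was -1.46 ± 0.18 at 38°C, -0.71 at 32°C (-0.90 without the first S070 and P040 libraries, -0.56 without P040) and -0.22 at 25°C, and it was called in 18 of 21 alternatives.

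ZCN18 (GRMZM2G158809) belongs to the family of FT, the mobile flowering signal of plants. At 38°C it was at 0.91, 0.61, 0.55 and 1.32 CPM in Flint and at 2.88, 3.18, 2.51 and 4.84 CPM in Dent. All Dent lines were above all Flint lines, and the change from 25°C was 0.50 to 2.36 on the log2 scale in the Dent lines and -0.65 to 0.79 in the Flint lines. The remaining Dent-higher genes carry no description in the sources used here. GRMZM2G010929 lay at 1.18 to 1.87 CPM in Flint and 3.10 to 3.57 CPM in Dent, GRMZM2G161868 at 3.56 to 5.04 and 7.36 to 11.3 CPM, and GRMZM2G445057 at 1.80 to 2.69 and 3.98 to 5.41 CPM. GRMZM2G161868 was higher at 38°C than at 25°C in all 8 lines and GRMZM2G010929 in 7 of 8.

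GRMZM2G065757 and GRMZM2G052412 were higher in Flint. GRMZM2G065757 stood at 15.8, 10.7, 12.8 and 9.43 CPM in the Flint lines and 5.17, 5.75, 4.49 and 4.25 CPM in the Dent lines. The change from 25°C was 0.07 to 1.20 in the Flint lines and -0.51 and -1.05 in S058 and P040, with S067 and S070 near 0, and its difference was 1.30 ± 0.20 at 38°C and 0.26 at 25°C. GRMZM2G052412 was a gene of low level, with 1.05, 1.14, 1.02 and 0.96 CPM in Flint against 0.24, 0.14, 0.14 and 0.27 CPM in Dent. At 25°C no line passed 0.30 CPM, and its small difference there rests on 9 counts in Flint and 10 in Dent. Of the 8 genes, the 6 other than GRMZM2G017186 and GRMZM2G085747 were called in 7 to 11 alternatives of 20 or 21, and in at most 1 of the 8 fits that left out a line.

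**Figure D2:**
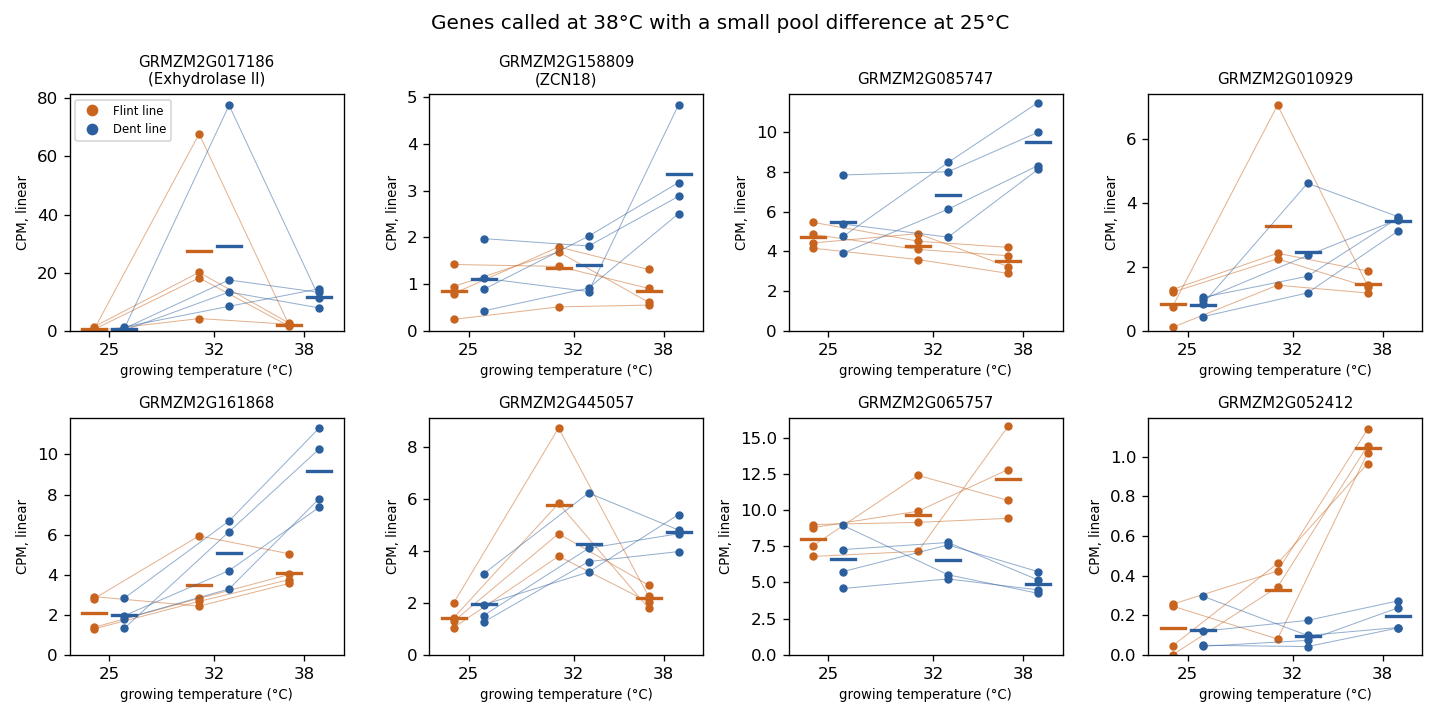
CPM on a linear axis against growing temperature for the 8 genes of the rule, 1 point per line (mean of its libraries), thin lines joining a line's points and bars at the mean of 4 lines, Flint in orange and Dent in blue. At 38°C the 4 Flint points and the 4 Dent points do not overlap in any panel, while at 25°C and 32°C they do.

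Some of the 8 genes sit close to the limits that chose them. The adjusted p at 38°C was 0.050, 0.044 and 0.040 in the 3 nearest inside (GRMZM2G445057, GRMZM2G052412 and GRMZM2G158809) and 0.051, 0.054 and 0.054 in the 3 nearest outside (GRMZM2G096680, GRMZM2G362557 and GRMZM2G037485). The size at 38°C was 1.08, 1.22 and 1.27 in the nearest inside (GRMZM2G445057, GRMZM2G161868 and GRMZM2G010929) and 0.96, 0.94 and 0.90 in the nearest outside (GRMZM2G001750, GRMZM2G090928 and GRMZM2G006121). The size at 25°C was 0.42, 0.41 and 0.26 inside (GRMZM2G158809, GRMZM2G445057 and GRMZM2G017186) and 0.51, 0.61 and 0.67 outside (GRMZM5G899123, GRMZM2G007260 and GRMZM2G056014). Without the doubted P040 library at 25°C, ZCN18 (-0.58) and GRMZM2G445057 (-0.50) passed the 25°C limit and 6 genes were left. Applied without one line, the rule took no gene without L043, 1 without S070 and 2 each without L023, S058 or P040, all of them among the 8. It took 5 without L017, 6 without L012 and 24 without S067, of which 2, 2 and 4 were among the 8. With only the first library of each line it took 1 gene, which was none of the 8, and with only the second 27, which held 1 of the 8.

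A wider set of genes had lines that did not overlap at 38°C, a difference of at least 1 in size there and under 0.5 at 25°C, without the need to be called: 119 genes (0.665%), 53 higher in Flint (0.296%) and 66 higher in Dent (0.369%). With a mean of at least 1 log2 CPM there were 14 and 35. The names that follow are those with the largest differences among the genes above this minimum after the 8 genes above, and none of them was called at 38°C.

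Among the Flint-higher genes of this set, GRMZM2G163418 was at 3.65, 2.89, 9.21 and 4.15 CPM in Flint and at 1.49, 0.40, 0.95 and 0.74 CPM in Dent, a difference of 2.47 ± 0.48 (adjusted p = 0.058). The change from 25°C was 1.12 to 3.07 on the log2 scale in the Flint lines and -0.61 to 0.04 in the Dent lines. In GRMZM2G109405 the change was -1.24 to -0.67 in Flint and -2.77 to -2.01 in Dent, and the levels at 38°C were 10.9 to 16.1 CPM in Flint and 3.51 to 7.61 CPM in Dent. GRMZM2G053987 (MPK4), a mitogen-activated protein kinase of stress signalling, lay at 5.71 to 10.4 CPM in Flint and 1.59 to 5.01 CPM in Dent (adjusted p = 0.216). GRMZM2G323844 and GRMZM2G112942 had differences of 1.33 and 1.29, but the reference table places both at 1 locus, so they are not counted as separate genes. GRMZM2G305159 (1.42), GRMZM2G015955 (1.49), GRMZM2G037485 (1.11) and GRMZM2G063679 (1.11) completed the Flint-higher names.

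Of the Dent-higher names, the glutamate dehydrogenase GRMZM2G427097, an enzyme that links ammonium to carbon metabolism, had the largest difference. It was at 0.64, 2.11, 1.15 and 0.89 CPM in the Flint lines and at 38.1, 3.18, 14.4 and 2.53 CPM in the Dent lines. S058 and S070 were far above the rest, the other two Dent lines were only just above the highest Flint line, and the difference of -3.61 ± 0.88 was not called (adjusted p = 0.107). At 25°C all 8 lines lay between 0.54 and 1.17 CPM. GRMZM2G074083 (-2.69) was high in P040 alone (20.5 CPM, against 2.11 to 2.36 CPM in the other Dent lines and 0.54 to 1.71 CPM in Flint). GRMZM2G362557 was more even, with 5.49 to 7.39 CPM in Flint and 10.4 to 25.3 CPM in Dent (-1.51, adjusted p = 0.054). GRMZM2G060886 (-1.51) and GRMZM2G099305 (GNAT15, -1.65) were the others.

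Whether a pool difference changed between 25°C and 38°C was tested directly, with each line as its own control. No gene passed: 0 of 17905 genes (0.0%) had an adjusted p below 0.05 in edgeR, the smallest adjusted p was 0.202, and 1502 genes (8.39%) had an unadjusted p below 0.05, 865 of them positive (4.83%) and 637 negative (3.56%). DESeq2 called 47 genes for the same interaction and limma voom 3, and edgeR again 0 without the doubted P040 library at 25°C or without the second L043 library. For the 8 genes of the rule the adjusted p of the interaction was 0.202 to 0.650 and the unadjusted p was below 0.05 in 7. The change of the pool difference between 25°C and 38°C was thus not called for any of these genes.

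Among genes with a mean of at least 1 log2 CPM at 38°C, those with the smallest unadjusted p of the interaction in each direction, none of which passed, showed several shapes. In GRMZM2G109405 (1.31), GRMZM2G163418 (2.46), GRMZM2G032028 (1.33), GRMZM2G142549 (0.99), GRMZM2G423202 (1.33) and GRMZM2G333045 (1.89) the difference was near 0 or negative at 25°C and positive at 38°C. In GRMZM2G388045 (2.72) and GRMZM2G345667 (1.33) Dent was higher at 25°C, by 2.71 and 1.78, and the differences were 0.05 and -0.49 at 38°C. GRMZM2G345667 was at 0.52 to 0.94 CPM in Flint and 2.14 to 3.12 CPM in Dent at 25°C, and at 1.62 to 2.38 and 2.60 to 2.98 CPM at 38°C. In the opposite direction stood GRMZM2G058612 (-1.53), GRMZM2G085747 (-1.25), GRMZM2G138258 (-1.83), GRMZM2G427097 (-3.32) and GRMZM2G019177 (-1.23). GRMZM2G409224 (-1.50), GRMZM2G083068 (-1.29) and GRMZM2G311182 (-2.09) had positive differences at 25°C (1.18, 1.36 and 1.56) and differences of -0.34, 0.02 and -0.29 at 38°C.

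The gene lists below were described by counts and medians, beside a median of -0.002 at 38°C, 0.002 at 25°C and 0.03 for the interaction over all genes. An unadjusted p below 0.05 was reached at 38°C by 15.7% of all genes, by 7.29% of all genes with Flint higher and by 8.38% with Dent higher.

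None of 15 heat shock proteins was called, their median difference was 0.10, and 12 of the 15 were higher at 38°C than at 25°C in the mean of both pools. The summed level was 484.9 ± 79.6 CPM in Flint and 466.6 ± 40.6 CPM in Dent (SD, n = 4 lines). HSP101 (GRMZM2G360681), the disaggregase that pulls proteins out of clumps, was named after its values were seen: it went from at most 1.97 CPM in any line at 25°C to 8.20 to 26.0 CPM in Flint and 12.8 to 20.0 CPM in Dent. The small protein GRMZM2G149647 (hsp26) reached 54.8 CPM in L012 and 1.85 to 14.6 CPM in the other 7 lines. An hsp70 (GRMZM2G310431) had 32.6 to 54.3 CPM in Flint and 48.6 to 88.2 CPM in Dent (-0.65, unadjusted p = 0.042, not called). None of 8 heat stress transcription factors and none of the 26 genes of the study's heat stress bin was called.

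Photosynthesis genes had negative differences at 38°C, with no member called. Of 7 light-harvesting proteins, the antennae that pass light energy to the photosystems, all 7 had a negative difference at 38°C (median -0.51), whereas 6 of 7 were positive at 25°C (median 0.39). All 6 bundle sheath markers (median -0.48, and 0.34 at 25°C) and all 5 mesophyll markers (median -0.42, and 0.01 at 25°C) were negative as well. The interaction was negative in all 18 of these genes, and its unadjusted p was below 0.05 in 2, 4 and 1 of them, against 3.56% of all genes. None passed after adjustment. The pools overlapped in the summed level of each list at 38°C. Light-harvesting proteins summed to 328 to 478 CPM in the Flint lines and 392 to 665 CPM in the Dent lines. For bundle sheath markers the ranges were 522 to 1220 and 956 to 1234 CPM. For mesophyll markers they were 2201 to 2924 and 2565 to 4161 CPM. P040 was the highest Dent line for light-harvesting proteins and mesophyll markers. Whether these 18 genes vary independently was not tested. Without the doubted P040 library the medians at 25°C were 0.42, 0.44 and 0.09 for light-harvesting proteins, bundle sheath and mesophyll markers.

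The small subunit of Rubisco had the smallest unadjusted p of these interactions. In GRMZM2G098520 the level was 48.4, 22.8, 20.8 and 31.0 CPM in L012, L017, L023 and L043 and 71.7, 24.6, 50.3 and 83.4 CPM in S058, S067, S070 and P040 at 38°C, with overlap between the pools. From 25°C to 38°C it changed by -0.60, -1.32, -1.20 and -0.09 in the Flint lines and by 0.48, 0.45, 0.04 and 0.50 in the Dent lines, and the interaction was -1.32 ± 0.28 (unadjusted p = 0.00051, adjusted p = 0.226). The second copy, GRMZM2G113033, had an interaction of -1.37 (unadjusted p = 0.0012). Reads of near-identical small subunit genes may be shared, so the pair is not separate evidence. A carbonic anhydrase (GRMZM2G121878), which supplies bicarbonate to the first carboxylation, was at 25.5 to 81.3 CPM in Flint and 45.1 to 147.8 CPM in Dent, the lowest Dent line being S067. PEPC1 (GRMZM2G083841), the phosphoenolpyruvate carboxylase, was at 956 to 1529 CPM in Flint and 1286 to 2207 CPM in Dent. In whole leaf pieces a lower share of a cell type and less RNA per cell cannot be told apart.

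**Figure D3:**
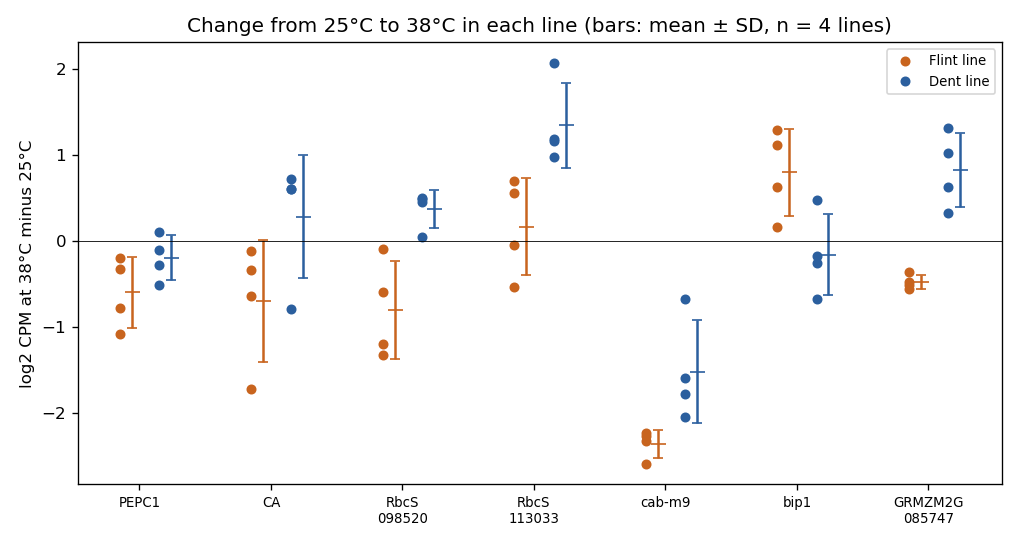
Change in log2 CPM from 25°C to 38°C on the vertical axis for 7 genes, 1 point per line, with the mean and SD of 4 lines beside the points, Flint in orange and Dent in blue. In the Rubisco gene GRMZM2G098520 and in GRMZM2G085747 the change was negative in all 4 Flint lines and positive in all 4 Dent lines.

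Endoplasmic reticulum chaperones had mostly positive interactions. Of 14 chaperones and disulfide isomerases, 13 had a positive interaction (median 0.33) and none was called. The binding protein bip1 (GRMZM2G114793), the main chaperone of that compartment, was at 18.2, 24.0, 60.2 and 17.6 CPM in Flint and 20.3, 23.3, 16.7 and 24.0 CPM in Dent at 38°C. The high value was that of L023, and without L023 the difference of 0.48 became -0.10. Calreticulin (crt2, GRMZM2G358059) had the same shape, with 29.3 CPM in L023 and 11.2 to 15.7 CPM in the other 7 lines.

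Of 18 genes of jasmonate synthesis and its relatives none was called, and 3 had an unadjusted p below 0.05 with Flint higher. The reductase genes opr1 (GRMZM2G106303) and opr2 (GRMZM2G000236) belong to a family that includes the enzymes of jasmonate synthesis. opr2 was at 2.06, 15, 7.20 and 0.34 CPM in the Flint lines and at 0.55, 0.72, 0.51 and 0.40 CPM in the Dent lines. The level was thus high in L017 and L023, and L043 was below every Dent line, so the pools overlapped (3.35 ± 0.95, adjusted p = 0.152). At 32°C it was the Dent lines S070 (2.45 CPM) and P040 (9.95 CPM) that were high, while L017 and L023 were at 0, and the first 32°C libraries of S070 and P040 are the ones that did not match their lines. opr1 followed the same lines, with 16.1 and 6.64 CPM in L017 and L023 and at most 1.39 CPM elsewhere at 38°C. The 5 pathogenesis-related proteins were all lower in Flint at 25°C (median -2.80), and at 38°C their median was 0.83, with none called in either test. The pools overlapped at 25°C: the summed level was 14.4 to 63.7 CPM in the Flint lines and 404.9, 92.2, 54.2 and 17.6 CPM in S058, S067, S070 and P040, so that S058 was far above the rest. prp4 (GRMZM2G465226), of the PR-1 kind, had differences of -2.80 at 25°C and 1.83 at 38°C. At 25°C it was at 99.4 CPM in S058, while S070 (5.08 CPM) and P040 (4.28 CPM) were below the Flint line L043 (11.6 CPM). PR10 (GRMZM2G112524) had differences of -1.34 and 1.45.

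Of 21 glutathione S-transferases, which attach glutathione to reactive compounds, 15 were lower in Flint at 38°C, and 6 of these reached an unadjusted p below 0.05 while none was called. The count at 25°C was also 15. gst8 (GRMZM2G156877) was at 0.81, 1.51, 0.76 and 0.12 CPM in Flint and 5.64, 4.13, 5.31 and 9.93 CPM in Dent, without overlap (-2.96, adjusted p = 0.059), and its difference at 25°C was -3.41. gst31 (GRMZM2G475059) was at 2.08 to 13.2 CPM in Flint and 11.3 to 29.7 CPM in Dent. Of 14 terpene synthases, 5 had lines that did not overlap with Flint higher (4.56% of all genes), of which 2 (GRMZM2G016254 and GRMZM2G084496) had equal counts in all 47 libraries and count as 1. Other pairs of listed or named genes also had equal counts: GRMZM2G037413 and GRMZM2G055795 in 47 libraries, GRMZM2G047684 and GRMZM5G852663 in 43, and GRMZM2G103881 and GRMZM2G379563 in 39. Counts of list members may thus hold the same reads more than once.

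All 6 senescence markers were higher in Flint at 38°C, and all 6 were higher at 25°C as well, with medians of 0.55 and 0.74. see2b (GRMZM2G093032), a legumain protease of the vacuole, was at 23.8, 156, 384 and 153 CPM in L012, L017, L023 and L043 and at 70.9, 42.9, 12.5 and 25.0 CPM in S058, S067, S070 and P040. Only L012 lay within the Dent range, and the difference of 2.28 ± 0.80 was not called (adjusted p = 0.223). The level was lower at 38°C than at 25°C in all 8 lines. Of 20 aquaporins 1 was called, TIP4-1. The plasma membrane channel PIP2-6 (GRMZM2G047368) was at 0.37, 0.41, 0.38 and 0.09 CPM in Flint and 7.31, 3.14, 0.67 and 5.18 CPM in Dent, without overlap, and narrowly missed the call (-3.71 ± 0.70, adjusted p = 0.058). Of 27 MYB factors 1 was called, MYB59. No member was called among 14 WRKY, 13 NAC, 18 bZIP and 15 AP2/EREBP factors, or among 9 genes of benzoxazinoid synthesis, whose products deter insects.

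**Figure D4:**
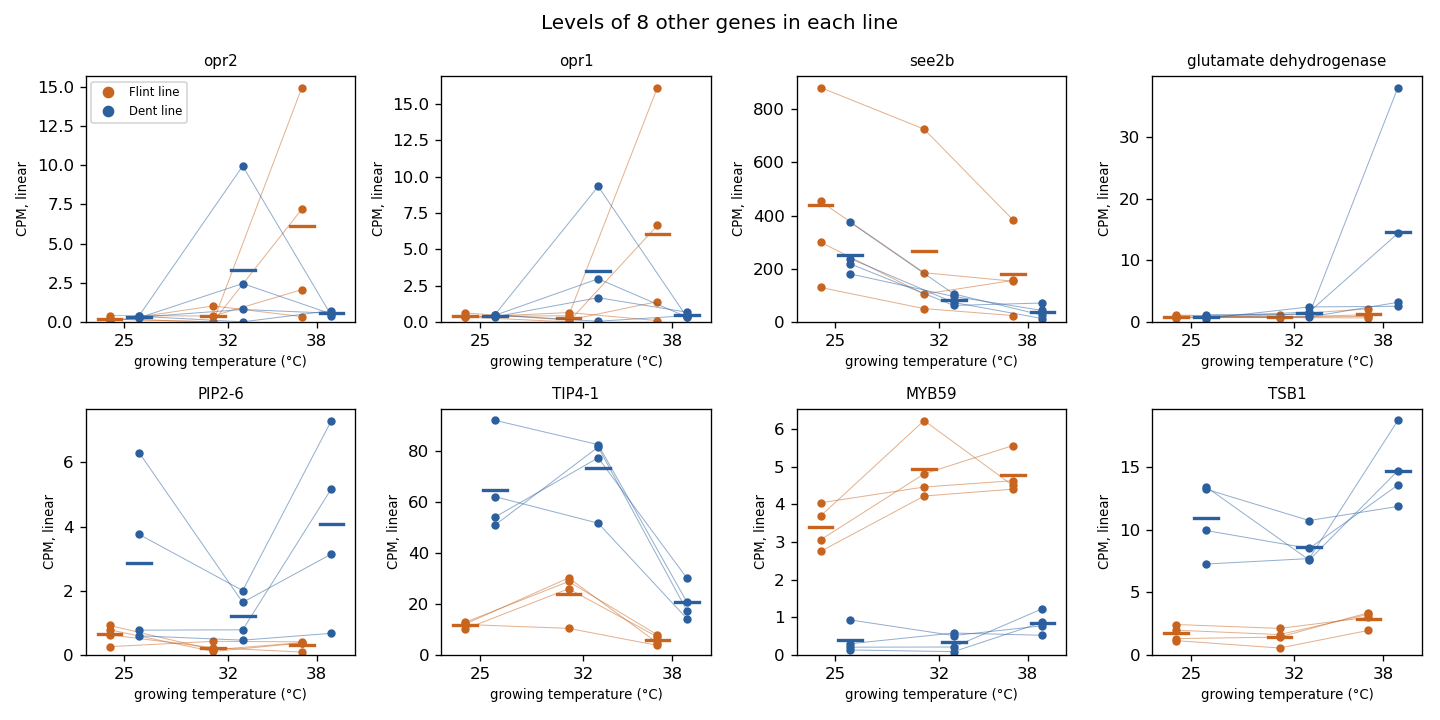
CPM on a linear axis against growing temperature for 8 genes named in the text, 1 point per line, bars at the mean of 4 lines, Flint in orange and Dent in blue. At 38°C opr1, opr2 and see2b are highest in L017 or L023, and at 32°C opr1 and opr2 are highest in P040. The pools are apart at all 3 heat levels in MYB59, TSB1 and TIP4-1.

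The study's heat tolerance genes were chosen on these samples by how they relate to performance in heat, so their direction is not independent evidence. Of the 39 measured, 1 was called, GRMZM2G110553, with 1.65 to 5.49 CPM in Flint and 0.13 to 0.37 CPM in Dent at 38°C (3.89, adjusted p = 0.022). Its difference at 25°C was 3.89 too. With an unadjusted p below 0.05, 16 of the 39 were lower and 4 higher in Flint, and 38 of the 39 were higher at 38°C than at 25°C in the mean of both pools. The summed level was 98.8 ± 5.7 CPM in Flint and 164.6 ± 20.9 CPM in Dent (SD, n = 4 lines), without overlap between lines. The nearest lines were L012 (105.9 CPM) and S067 (139.8 CPM), and GRMZM2G384884 alone held 1.07 and 36.0 CPM of these, so the gap leans on this gene. At 25°C the sum was 39.5 ± 7.3 CPM in Flint and 56.2 ± 25.7 CPM in Dent (SD, n = 4 lines), with overlap. GRMZM2G384884 was at 1.07, 1.25, 2.17 and 11.7 CPM in Flint and 51.8, 36.0, 22.9 and 23.4 CPM in Dent (-2.97, adjusted p = 0.140), and GRMZM2G115658 had differences of 0.41 at 25°C and -2.09 at 38°C. None of the 14 common heat responsive genes was called.

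**Figure D5:**
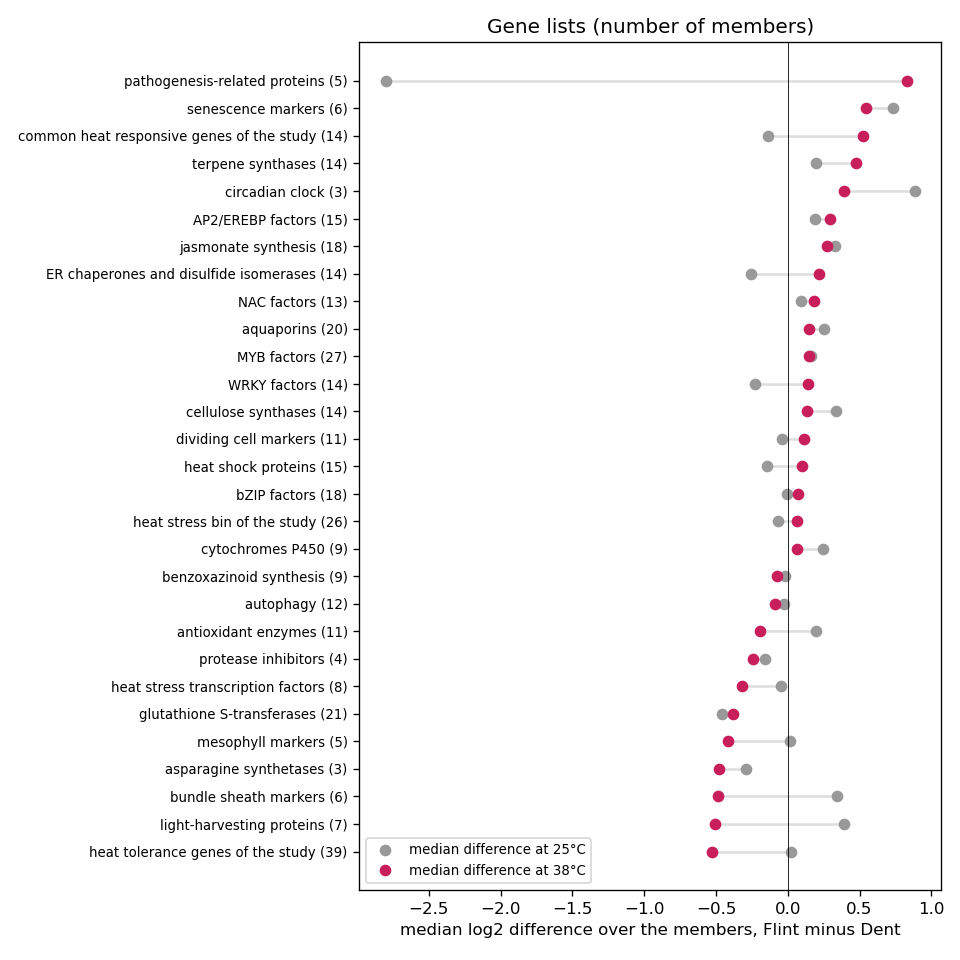
Median log2 difference between the pools over the members of each gene list with 3 or more members, at 25°C in grey and at 38°C in red, number of members in brackets. The lists of light-harvesting proteins, mesophyll and bundle sheath markers move from 0 or above at 25°C to between -0.51 and -0.42 at 38°C, and the pathogenesis-related proteins from -2.80 to 0.83.

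Other cell contents that could differ between leaf pieces were looked at with marker lists. Of 11 markers of dividing cells none was called, and their summed level was 47.9 ± 4.9 CPM in Flint and 46.2 ± 12.8 CPM in Dent (SD, n = 4 lines). The 2 cuticle and epidermis markers summed to 3.5 ± 0.6 and 2.0 ± 1.3 CPM. Actin1 (GRMZM2G126010), the reference gene of the study's quantitative PCR, was at 6.33 to 11.5 CPM in Flint and 5.40 to 8.16 CPM in Dent (0.42, adjusted p = 0.422). The part of cell content in the differences above was not tested.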

How the data were processed

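The authors aligned RNA-seq reads of seedling leaves to B73 RefGen_v3 with TopHat2 (version 2.0.3) and deposited 1 table of raw read counts per gene. Gene positions are not given here. RefSeq names were matched for 12358 of 17905 genes. From the deposited counts, the 2 libraries of each line at a heat level were summed and tested with edgeR 4.0.16 (TMM, quasi-likelihood, Benjamini-Hochberg over all genes, R 4.3.3): Flint against Dent at each heat level, and the pool by heat level interaction with line as block. DESeq2 1.42.0 and limma 3.58.1 served as alternatives. CPM per line is the mean of its libraries, and log2 CPM used a prior count of 2. Named genes were the largest differences (10 per direction) of the genes appearing at 38°C, filled from genes whose lines did not overlap, the 8 smallest interaction p per direction, up to 4 genes per list, Actin1 and the genes nearest each limit, and 8 more were chosen after their values were seen. The members and lists were chosen with earlier results of these data known. Counting depth ranged over 3687700 to 13912372 reads at 38°C. Libraries of a line differed by more than counting noise, and p-values measure the spread between 4 lines per pool.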

Additional observations from a re-analysis of the deposited data

Results flagged for a closer look

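Among 164 groups of 4 lines (82 named genes in each pool) at 38°C, 7 had 1 line far from the others, where chance flags about 1 in 20 groups. P040 stood at 20.5 CPM in GRMZM2G074083, against 2.11 to 2.36 CPM in the other Dent lines. S067 was low in 3 genes: 1.09 CPM in GRMZM2G019177 (others 12.4 to 15.9), 11.3 CPM in gst31 (GRMZM2G475059, others 26.0 to 29.7) and 45.1 CPM in the carbonic anhydrase GRMZM2G121878 (others 125 to 147.8). L023 was high in crt2 (GRMZM2G358059, 29.3 CPM, others 13.7 to 14.9) and low in TSB1 (GRMZM2G169593, 1.95 CPM, others 3.00 to 3.37). L012 was low in WRKY53 (GRMZM2G125653, 0.30 CPM, others 3.67 to 4.54).

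In 7 named genes all 4 Flint lines changed one way from 25°C to 38°C and all 4 Dent lines the other way, as in 97 of all genes. Only the sign was asked for, and some changes were near 0. S067 changed by -0.003 in GRMZM2G065757 and 0.03 in GRMZM2G138258, and S070 by 0.04 in GRMZM2G098520. Some of the named genes had been taken for a small interaction p. The interaction test did not pass for any of the 7 genes. Its values were 1.01 for GRMZM2G065757, -1.25 for GRMZM2G085747, 1.89 for GRMZM2G333045, -1.23 for GRMZM2G019177, -1.83 for GRMZM2G138258, -1.29 for GRMZM2G083068 and -1.32 for the Rubisco gene GRMZM2G098520, with adjusted p of 0.202 to 0.401.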

How the results depend on the processing

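Counts of called genes are given in the order 38°C, 32°C, 25°C, interaction and genes appearing at 38°C, where the values reported were 102, 214, 7, 0 and 8. DESeq2 gave 1015, 880, 330, 47 and 112. With limma voom on single libraries and line as a random effect the counts were 505, 618, 208, 3 and 55, and with the replicate block added 454, 500, 174, 4 and 40. The replicate numbers were not taken as pairs, because over 28 pairs of lines at 38°C the correlation of same-numbered libraries was -0.163 to 0.366 (median 0.107), with 15 and not all pairs over 0.1. A partial sharing was not tested further. Treating the libraries as independent gave 1772, 1338, 866 and, for the appearing genes, 172. With the tolerance class as covariate there were 48 genes at 38°C, 1 at 25°C and 4 appearing, of which 2 were among the 8 reported. Without the second L043 library 8 genes appeared, of which 6 were among the 8 reported. Thinning all line sums to the smallest gave 76, 136, 3, 3 and 5. A filter at 5 CPM gave 98 at 32°C and 18 at 25°C, a filter at 1 CPM 11 at 25°C, and DESeq2 size factors 4 at 25°C. Leaving out a line or a replicate number gave 15 to 133, 3 to 347, 0 to 83, 0 to 11 and 0 to 27. Without the doubted library at 25°C there were 39 and 6 (25°C and appearing). The alternatives at 32°C, that without the second L043 library, and the splits and list medians at 25°C without the doubted library were chosen after seeing the data: without the first S070 and P040 libraries 44 genes were called at 32°C.

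Among single genes, the difference at 38°C changed sign in HSP101 (GRMZM2G360681, -0.076 with voom, -0.10 with the replicate block, -0.86 to 0.87 over the sets with a line or replicate left out). GRMZM2G149647 ranged from -0.092 to 2.64, bip1 (GRMZM2G114793) from -0.24 to 1.04, crt2 (GRMZM2G358059) from -0.026 to 0.95 and pr5 (GRMZM2G402631) from -2.24 to 0.12 over those sets. The causes were not tested.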
